A study of Mus musculus with 80 samples.

Results

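The genes described are 10 members of the integrated stress response, the cellular programme that turns on when amino acids run short, proteins misfold or haem is lacking: Atf4, Atf5, Asns, Trib3, Sesn2, Ddit3, Ddit4, Chac1, Psat1 and Phgdh. They were taken from the table of raw gene counts by symbol. Of 78275 rows, 11 carry a member's symbol, and 1 of these, a second Ddit3 row, held 0 counts in total and was left out, so that each of the 10 genes had 1 row. All 10 were among the 21187 genes that passed the filter on low counts. Psat1 and Phgdh came close to its limit, with medians of 15 and 5 counts per library.

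The libraries are from livers of C57BL/6J mice, an inbred laboratory strain, of both sexes, 8 to 12 weeks old, given standard chow and kept in a light–dark cycle before constant darkness. Control mice were fed ad libitum throughout, and fasted mice lost access to food at circadian time (CT) 10. Sampling began at CT8 and went on in steps of 4 h until CT44 (10 times), with 4 mice per treatment each time, 2 of each sex, for 80 libraries of polyadenylated RNA. At CT8 the group named fasted was still being fed, and from CT12 to CT44 it had been without food for 2 to 34 h. Libraries were assigned by title, since the detailed labels give another sex than the title for 40 libraries and another treatment for 40. Xist and Ddx3y went with the sex of the title in 80 of 80 libraries.

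In the integrated stress response, kinases phosphorylate the initiation factor eIF2, overall protein synthesis falls, and a few messages with upstream open reading frames, Atf4, Atf5 and Ddit3 among them, are translated more. The ATF4 protein then pairs with C/EBP factors on composite elements near its target genes, among them those for amino acid synthesis and transport, tRNA charging, glutathione breakdown and the brakes on the growth kinase mTORC1. Because much of the control of Atf4 lies in translation, its message and the messages of its targets need not move together. The measurements here are of RNA alone, and in whole liver fewer cells of a type and less RNA per cell cannot be told apart.

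Totals per library ran from 25534901 to 59927771 counts, with a median of 42303883. Counts were scaled by TMM to CPM, the counts a gene would have in a library of 1000000, and every adjusted p below is from edgeR's quasi-likelihood test with Benjamini–Hochberg adjustment over all genes tested, with a gene called at an adjusted p under 0.05. The summed hepatocyte markers (Alb, Apoa1, Ttr, Serpina1c and Cyp3a11) lay between 57805 and 125013 CPM from CT12 to CT44. Markers of other cells moved with the treatment over those times: the medians of the summed lists in control and fasted libraries were 284 and 212 CPM for Kupffer cells, 30.5 and 18.2 CPM for cholangiocytes, and 10.2 and 4.72 CPM for pancreatic acinar cells, all lower in fasted liver, and 0.772 and 1.34 CPM for neutrophils, with overlapping ranges. Their part in the results below was not tested. The known responses to food removal were present. Srebf1 and Fasn, of lipid synthesis, fell by 3.13 and 2.86 on the log2 scale, while Pck1, of gluconeogenesis, and the hormone Fgf21 rose by 1.80 and 3.95.

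Some libraries stood apart. Control CT8 female 2 had the lowest mean correlation with the other libraries of its group (0.942), held 31.3% of its counts on Rn18s-rs5, a ribosomal RNA row that took at most 4.88% elsewhere, and had 59.6 CPM of summed lymphocyte markers against at most 15.5 CPM in the other 79. Cd3e, a T cell receptor subunit, made up 54.2 CPM of that sum, and the T cell genes Lck, Rag1 and Trbc2, chosen after their values were seen, stood at 62.5, 19.2 and 112 CPM there and at no more than 1.97 CPM in any other library. Fasted CT40 female 2 had the next lowest correlation (0.947) and the highest Ddit4, Sesn2 and Atf4 of all 80 libraries. Fasted CT44 female 1 was second for Sesn2 and had a correlation of 0.965. Fasted CT40 male 1 and control CT8 males 1 and 2 (0.964 each) were lower and were not set apart. Each of these males shares a group with fasted CT40 female 2 or control CT8 female 2. Leaving out fasted CT40 female 2 and fasted CT44 female 1 was not planned beforehand. Calls of the members that these females and control CT8 female 2 made or hid are given below with and without them.

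In control liver the order of the members, by median CPM per kilobase of exon over 40 libraries, was Atf5 (137), Atf4 (35.8), Ddit4 (6.40), Ddit3 (2.37), Sesn2 (2.23), Trib3 (1.02), Chac1 (0.930), Asns (0.475), Psat1 (0.0927) and Phgdh (0.0584). Only Atf4 and Ddit4 among neighbours in that order had ranges that did not overlap (25.5 to 51.7 and 1.37 to 15.7 CPM per kilobase). Atf5, a relative of Atf4 that serves the mitochondrial branch of the response, was thus the most abundant member, whereas Phgdh and Psat1, which carry out the opening steps of serine synthesis from glycolysis, were close to absent. Phgdh had 0 counts in 3 fasted libraries, which allows up to 0.0643 to 0.110 CPM in them (3 counts, counting error only).

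The annotation of GRCm38 (GENCODE M21) places Asns on chromosome 6 (7675169 to 7693254, minus strand), Trib3 on chromosome 2 (152337422 to 152344032, minus strand) and Chac1 on the same chromosome (119351229 to 119354381, plus strand). Exons of Atf5 overlap those of Nup62 and Il4i1 on the opposite strand over 82 bases, and exons of Ddit3 overlap Mars over 68 bases. The libraries kept the strand, but whether the counting used it is not given in the sources used here, so the counts of Atf5 and Ddit3 may hold some reads of these neighbours.

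ATF4 and its C/EBP partners bind a composite element whose core, written TGATGNAA, was searched on both strands in RefSeq promoters (GRCm38.p6, 250 bases before to 50 after each start). All 10 members had an entry, with 12 promoters in all, and 3 members held the core: Asns, Chac1 and Trib3. Of all 32851 promoters, 3.97% held it, and of all 27025 genes searched, 4.51% had a promoter with it. The matches are printed as places where the core occurs, and whether ATF4 binds at them was not tested. Capitals mark the match, which lies on the gene's own strand in Asns and on the opposite strand in Chac1 and Trib3. RefSeq and GENCODE place the starts of these genes differently. By the GENCODE positions given above, the Asns match lies inside the gene and the Trib3 match before its start. The windows are chr6:7693210-7693276 (Asns, minus strand), chr2:119351005-119351100 (Chac1, plus strand) and chr2:152344028-152344057 (Trib3, minus strand, past the RefSeq start site), each written 5′ to 3′ along the gene.
Asns: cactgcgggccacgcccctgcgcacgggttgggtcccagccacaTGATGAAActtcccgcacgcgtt
Chac1: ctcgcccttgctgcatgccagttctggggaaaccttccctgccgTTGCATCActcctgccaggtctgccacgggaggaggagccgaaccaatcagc
Trib3: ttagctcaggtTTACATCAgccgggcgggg

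The E-box CACGTG, to which CLOCK and BMAL1 bind, was in 0 of the 12 members' promoters and in 7.15% of all promoters. A match or its absence describes these letters in this window only.

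Averaged over CT12 to CT44 and both sexes, 6 members were higher in fasted liver, 2 were lower and 2 did not pass the test, against 29.5% of all genes tested that were called higher and 32.9% that were called lower. The 6 that rose were Ddit4, Sesn2, Trib3, Chac1, Atf5 and Asns. The 2 that fell were Atf4 and Ddit3. The median change of the 10 was 0.77 on the log2 scale, beside -0.02 over all genes. Jointly over the 9 times, 7 members differed, these same genes without Asns (adjusted p = 0.0635), when 61.7% of all genes did. The joint call of Atf4 was lost without male replicate 1 (adjusted p = 0.106) or 2 (0.135), and that of Ddit3 without male replicate 1 (0.0604) or female replicate 1 (0.0963).

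**Figure D1:**
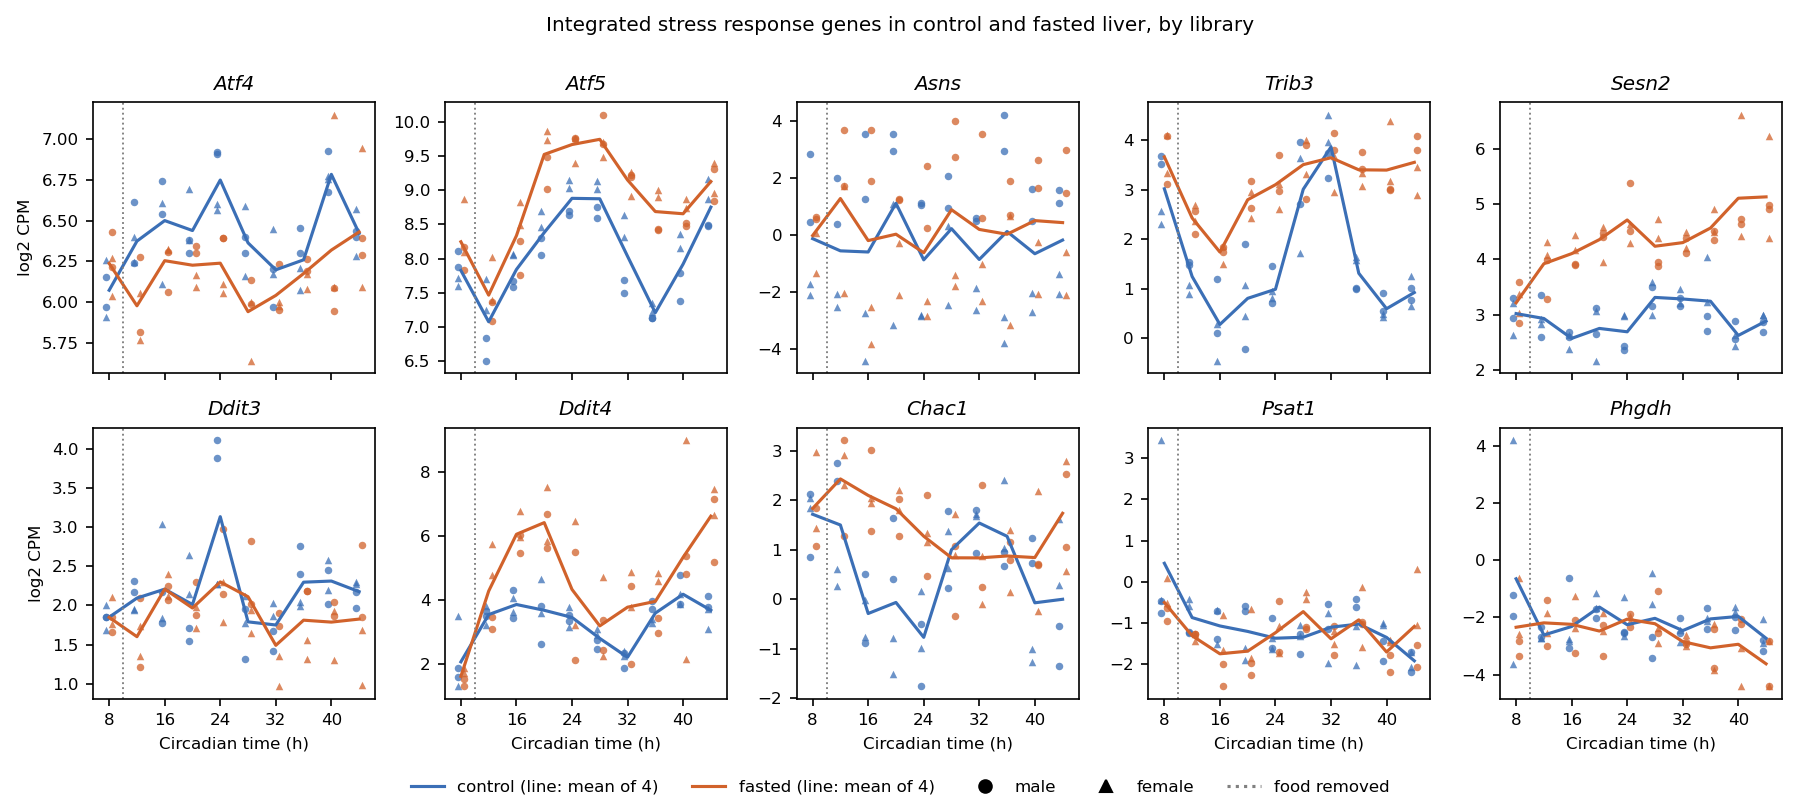
Level of each gene in log2 CPM (prior count 2) against circadian time, 1 point per library, circles for males and triangles for females, with lines through the means of 4 libraries for control (blue) and fasted (orange). Sesn2 and Atf5 separate after food removal, Trib3 falls in both groups to CT16 but less far in fasted liver, which shows no second trough from CT36 to CT44, and the single high points of Psat1 and Phgdh at CT8 are control CT8 female 2.

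Sesn2 encodes a leucine sensor that restrains mTORC1 and takes part in antioxidant defence. Its level over the 36 control libraries of CT12 to CT44 had a lowest, median and highest value of 4.44, 7.70 and 16.6 CPM, and over the 36 fasted libraries of 9.74, 21.4 and 98.5 CPM. At 8 of the 9 times every fasted library lay above every control library, the exception being CT12. The share of all genes in that position was 3.11% at CT12, 9.57% at CT16, 15.0% at CT20, 9.97% at CT24, 9.52% at CT28, 9.30% at CT32, 11.1% at CT36, 12.5% at CT40 and 13.9% at CT44. Sesn2 rose by 1.61 ± 0.10 (SE) on the log2 scale, 3.05-fold (adjusted p = 5.44e-19). At CT24, the 4 control libraries read 5.08, 5.37, 7.90 and 7.85 CPM and the 4 fasted libraries 41.9, 22.9, 25.1 and 19.6 CPM. At CT40, the fasted values were 24.9, 26.7, 21.5 and 98.5 CPM, the last of these from fasted CT40 female 2, over control values of 5.36 to 7.32 CPM. Without that library and fasted CT44 female 1 (75.5 CPM) the mean change was 1.46 (adjusted p = 1.58e-22). It was called higher at every time from CT16 to CT44.

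Trib3 encodes a pseudokinase that binds AKT and ATF4 and forms part of the negative feedback on the response. In control liver it swung widely with the time of day, from a group mean of 1.28 CPM at CT16 to 15.3 CPM at CT32, whereas the group means of fasted liver from CT12 on lay between 3.32 CPM at CT16 and 13.1 CPM at CT32. At CT20, the control libraries read 0.818, 3.71, 1.31 and 2.08 CPM and the fasted libraries 6.18, 8.96, 7.74 and 5.35 CPM. At CT32, the control libraries read 13.4, 9.36, 23.0 and 15.5 CPM and the fasted libraries 13.9, 17.7, 12.8 and 7.73 CPM. The groups were apart at the trough and overlapped at the peak. All 4 fasted libraries lay above all 4 control libraries at 7 of the 9 times, CT28 and CT32 being the exceptions. The mean change was 1.60 ± 0.12, 3.03-fold (adjusted p = 3.56e-16), and Trib3 was called higher at CT16, CT20, CT24, CT36, CT40 and CT44. The fitted change was largest at CT40 (2.88 ± 0.37) and was -0.21 at CT32. At CT8, before food removal, the group named fasted was higher by 0.70 ± 0.33, which did not pass (adjusted p = 0.362).

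Ddit4, also known as REDD1, is an mTORC1 inhibitor that is induced by glucocorticoids and hypoxia as well as by ATF4. It had the largest mean change of the 10, 1.76 ± 0.23 or 3.38-fold (adjusted p = 7.71e-09), and also the largest spread among fasted libraries, with a lowest, median and highest value of 3.92, 28.7 and 516 CPM against 3.58, 11.8 and 27.5 CPM in control libraries. At CT16, the control libraries read 10.8, 19.96, 16.5 and 12.3 CPM and the fasted libraries 65.6, 43.8, 109 and 62.3 CPM. At CT24, fasted libraries read 45.6, 4.32, 88.9 and 9.15 CPM and straddled the control range of 8.83 to 13.6 CPM. Fasted libraries were all above the controls at CT16, CT20 and CT44 only. Ddit4 was called higher at CT16, CT20, CT40 and CT44, but the value at CT40 (2.35, adjusted p = 0.00573) rested on fasted CT40 female 2, at 516 CPM beside 41.3, 28.2 and 4.35 CPM in the rest of its group. Without that library and fasted CT44 female 1, the change at CT40 was -0.59 (adjusted p = 0.551) and the mean change over the 9 times 1.40 (adjusted p = 2.20e-08), while the changes at CT24 and CT32 then passed (1.66 and 1.86, adjusted p = 0.0237 and 0.0209).

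Chac1, which breaks down glutathione, had few reads, with 10 to 405 counts per library. Its lowest, median and highest levels were 0.248, 1.43 and 6.66 CPM in control and 0.740, 2.45 and 9.29 CPM in fasted libraries. At CT16, the control libraries read 0.496, 1.38, 0.943 and 0.540 CPM and the fasted libraries 2.54, 8.07, 4.10 and 3.83 CPM, with no overlap. At CT28 to CT36 the groups overlapped and the fitted changes ran below 0. The mean change was 1.07 ± 0.19, 2.10-fold (adjusted p = 2.88e-06), and Chac1 was called higher at CT16, CT20, CT24 and CT44. The call at CT44 was lost without fasted CT40 female 2 and fasted CT44 female 1 (1.23, adjusted p = 0.112).

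Atf5 rose by 0.83 ± 0.05, 1.77-fold (adjusted p = 4.20e-19), from a median of 301 CPM in control to 507 CPM in fasted libraries. The largest change was at CT36, where the control libraries read 139.7, 140.1, 163 and 149 CPM and the fasted libraries 342, 346, 477 and 514 CPM. The groups were apart at all 6 times from CT20 to CT40 and overlapped at CT12, CT16 and CT44. The gene was called higher at the 8 times from CT16 onwards, with the smallest of these changes at CT44 (0.39 ± 0.15). At the start of the fast, at CT12, its change of 0.40 did not pass. Before food removal, at CT8, the group named fasted was already higher by 0.45 ± 0.15, which did not pass (adjusted p = 0.122). That difference was no smaller than the changes at CT12 and CT44.

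Atf4, which encodes the transcription factor at the centre of the response, fell by 0.27 ± 0.05 on the log2 scale (adjusted p = 6.86e-06). The lowest, median and highest values were 62.7, 85.5 and 122 CPM in control and 49.8, 69.7 and 142 CPM in fasted libraries, the highest being fasted CT40 female 2. At CT24, the control libraries read 120.2, 121, 94.6 and 97.0 CPM and the fasted libraries 84.1, 84.1, 69.0 and 66.5 CPM. The groups did not overlap at CT24 and CT28, where 9.52% and 9.01% of all genes lay below the controls in every fasted library, and Atf4 was called lower at CT24, CT28 and CT40. Without fasted CT40 female 2 and fasted CT44 female 1 the change at CT40 was -0.72 (adjusted p = 2.16e-05), beside -0.42 with them. Ddit3, which encodes CHOP, a factor tied to cell death under prolonged stress, fell by 0.29 ± 0.07 (adjusted p = 7.69e-04). The largest difference was at CT24, where the 2 control males stood at 17.3 and 14.7 CPM, above every other library (at most 8.18 CPM), while the 2 control females stood at 4.78 CPM each and the fasted libraries at 4.37, 7.84, 3.40 and 4.87 CPM. With CT24 left out, the mean change was -0.23 (adjusted p = 0.0123), but the call was lost without female replicate 1 (-0.20, adjusted p = 0.0762) and in males alone (-0.06, adjusted p = 0.658).

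Asns, asparagine synthetase, is a gene on which ATF4 has long been studied. Its mean change of 0.72 ± 0.32 (adjusted p = 0.0468) was the weakest of the 8 calls, and it held under 8 of 24 alternatives, among which it ran from 0.39 to 1.12. The call was lost, for example, without CT12 (0.50, adjusted p = 0.208) and without fasted CT40 female 2 and fasted CT44 female 1 (0.60, adjusted p = 0.133). At no single time was Asns called, and at none of the 9 times were its groups apart. Psat1 and Phgdh did not pass, with mean changes of -0.06 ± 0.16 and -0.48 ± 0.31 (adjusted p = 0.798 and 0.177). At CT12 alone did the groups of Psat1 not overlap, with fasted libraries below (2.85% of all genes), and Phgdh overlapped at all 9 times. The gap of Psat1 at CT12 was narrow, between 0.371 CPM in the highest fasted and 0.374 CPM in the lowest control library. Its change at that time did not pass (adjusted p = 0.741). Psat1 lay between 0.125 and 1.19 CPM and Phgdh between 0 and 0.680 CPM in all libraries but control CT8 female 2, where they reached 10.8 and 18.3 CPM beside the T cell genes given above, whose part in this was not tested. Outside that library they had 4 to 43 and 0 to 31 counts. Psat1 fell by 0.42 in males fitted alone (adjusted p = 0.0191), with a change of 0.31 in females (adjusted p = 0.348), and at CT44 it passed without control CT8 female 2 (1.00, adjusted p = 0.0294).

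**Figure D2:**
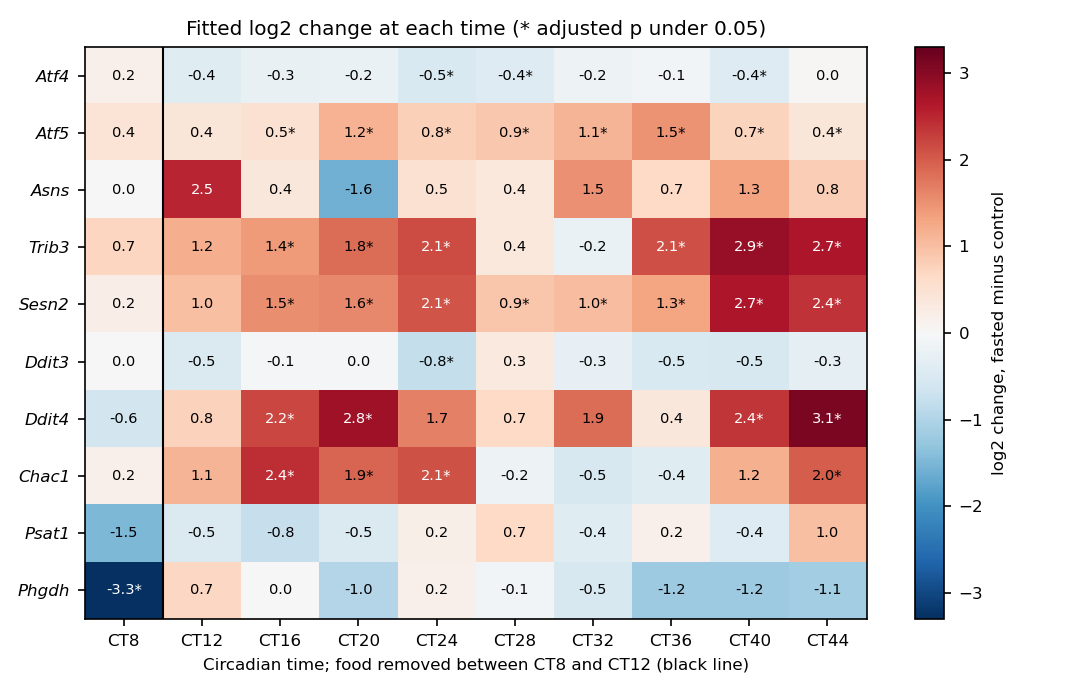
Fitted log2 change of fasted against control liver for each gene (rows) at each circadian time (columns), with red for higher and blue for lower in fasted liver and an asterisk for an adjusted p under 0.05. From CT12 to CT44, 30 of the 90 cells are called higher and 4 lower, and the only call at CT8, before food was removed, is Phgdh. Of all genes, 0.920% (CT12) to 18.7% (CT40) were called higher and 0.684% (CT12) to 21.2% (CT40) lower at a time from CT12 on.

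Read by time, no member was called at CT12, 2 h after food removal, when 0.920% of all genes were called higher. At that time limma-voom called 0 members, and DESeq2 called Trib3 and Sesn2 (adjusted p = 0.0182 and 0.0229). Without fasted CT40 female 2 and fasted CT44 female 1, 3 members were called at CT12: Sesn2 (0.99, adjusted p = 0.00324), Trib3 (1.21, adjusted p = 0.0474) and Atf4 (-0.39, adjusted p = 0.0484). At CT16 and CT20, 5 members each were called higher (Atf5, Trib3, Sesn2, Ddit4 and Chac1), against 11.5% and 17.5% of all genes. At CT24, 4 were called higher (12.2% of all genes) and 2 lower (11.9%). The count dropped to 2 higher, Atf5 and Sesn2, at both CT28 (9.88%) and CT32 (8.40%), the rest phase, and returned to 3 at CT36 (12.8%), 4 at CT40 (18.7%) and 5 at CT44 (18.7%). Atf4 was also called lower at CT28 (11.1%) and CT40 (21.2%). At CT8, where both groups were fed, Phgdh alone was called (-3.28, adjusted p = 0.0255, with 1.21% of all genes called lower), and without control CT8 female 2 its value was 0.67 (adjusted p = 1.00).

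The times CT12, CT16 and CT20 and the times CT36, CT40 and CT44 are 24 h apart, so that the later ones have the same nominal phase after 24 h more without food. Whether the liver clock of fasted mice kept that phase was not tested. The fasting effect of 2 members, Trib3 and Sesn2, was larger at the later times, when 9.91% of all genes were called so. For Trib3 the mean effect was 1.49 at the early and 2.55 at the late times (difference 1.06 ± 0.29, adjusted p = 0.00681), and the call was lost with limma-voom (0.95, adjusted p = 0.0666) and without male replicate 2 (0.80, adjusted p = 0.169). At CT16 and CT40, control libraries ranged over 0.681 to 2.24 and 1.30 to 1.85 CPM, and fasted libraries over 2.78 to 3.62 and 7.96 to 20.9 CPM. For Sesn2 the means were 1.37 and 2.12 (difference 0.75 ± 0.24, adjusted p = 0.0197), a call that was lost with limma-voom (0.114), without male replicate 1 (0.275) and without male replicate 2 (0.158). Without fasted CT40 female 2 and fasted CT44 female 1 the difference was 0.90 for Trib3 (adjusted p = 0.0281) and 0.31 for Sesn2 (adjusted p = 0.223). Chac1 went the other way, from 1.82 to 0.92 (difference -0.90, adjusted p = 0.163), and passed without these libraries (-1.43, adjusted p = 0.0221). Ddit4 had means of 1.93 and 1.95 (difference 0.02, adjusted p = 1.00), and without these libraries the difference was -1.03 (adjusted p = 0.137).

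In control liver, 9 of the 10 members had a rhythm of 24 h by the cosine test, against 45.4% of all genes tested, and the exception was Asns (adjusted p = 0.652). Trib3 had the widest daily range, 9.25-fold from trough to peak with a peak at CT5.8 (adjusted p = 9.29e-11), in the subjective day when mice rest. Atf5 had a range of 3.34-fold with a peak at CT0.40 (adjusted p = 5.79e-13), Chac1 one of 3.60-fold at CT9.0 (adjusted p = 8.34e-04) and Ddit4 one of 3.17-fold at CT17.7 (adjusted p = 2.13e-06). Atf4 and Sesn2 had shallow rhythms of 1.33-fold at CT20.1 and 1.49-fold at CT6.7 (adjusted p = 0.00177 and 0.00377). The Sesn2 call was lost without male replicate 1 (adjusted p = 0.0567). The rhythm of Phgdh (adjusted p = 0.00942) was not called without control CT8 female 2 (adjusted p = 0.786). Those of Psat1 and Ddit3 (adjusted p = 0.00333 and 0.0426) were not called from CT12 to CT44 alone (adjusted p = 0.0775 and 0.104).

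In fasted liver, 5 of 9 members tested had a rhythm (Atf4, Atf5, Trib3, Ddit3 and Ddit4) and 50.8% of all genes did. The Trib3 call was lost with no linear change over time (adjusted p = 0.219) and without male replicate 2 (0.0764). Atf4 lost its call without female replicate 1 (0.137) and with a quadratic change over time (0.0870). Ddit3 lost its call, for example, without male replicate 1 (0.128) and without female replicate 2 (0.219). The rhythms themselves differed between fasted and control liver for Trib3, Sesn2, Ddit4 and Chac1, 4 of 10 members against 25.5% of all genes. The range of Trib3 was 1.81-fold without food (difference, adjusted p = 1.76e-05). That of Ddit4 was 10.4-fold with a peak at CT18.7 (difference, adjusted p = 0.0374), a call that was lost with limma-voom (adjusted p = 0.103), without male replicate 1 (0.234) and without female replicate 1 (0.180). Sesn2 and Chac1 had no rhythm that passed in fasted liver (adjusted p = 0.0859 and 0.174), and their rhythms differed from control with adjusted p = 0.00228 and 0.00711. These differences were lost without female replicate 1 for Sesn2 (0.0650) and without female replicate 2 for Chac1 (0.103), and the fasted rhythm of Sesn2 passed without female replicate 2 (adjusted p = 0.00676). That of Psat1 (adjusted p = 0.160) passed without fasted CT40 female 2 and fasted CT44 female 1 (0.0471). Atf5 kept a range of 3.22-fold with a peak at CT1.3, and no difference from control passed (adjusted p = 0.366).

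Asns was far lower in female than in male liver. Over the 20 control libraries of each sex, the lowest, median and highest values were 1.28, 2.66 and 18.7 CPM in males and 0, 0.133 and 2.09 CPM in females, which is 47 to 662 counts in males and 0 to 97 in females. The count of 0, in control CT16 female 2, allows up to 0.0705 CPM (3 counts, counting error only). Female liver had less Asns by 4.26 ± 0.42 on the log2 scale, 19.1-fold (adjusted p = 1.74e-11), and the mean of the 2 females was below that of the 2 males at 10 of 10 control times and 10 of 10 times in the fasted group. Males varied widely among themselves, as at CT36, where the 2 control males read 7.62 and 18.7 CPM and the 2 fasted males 1.58 and 3.70 CPM. The only other member with a sex difference in control liver was Atf5, higher in females by 0.44 ± 0.07 (adjusted p = 7.65e-07), with medians of 323 CPM in females and 228 CPM in males. Of all genes, 20.6% were called higher and 18.6% lower in females.

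**Figure D3:**
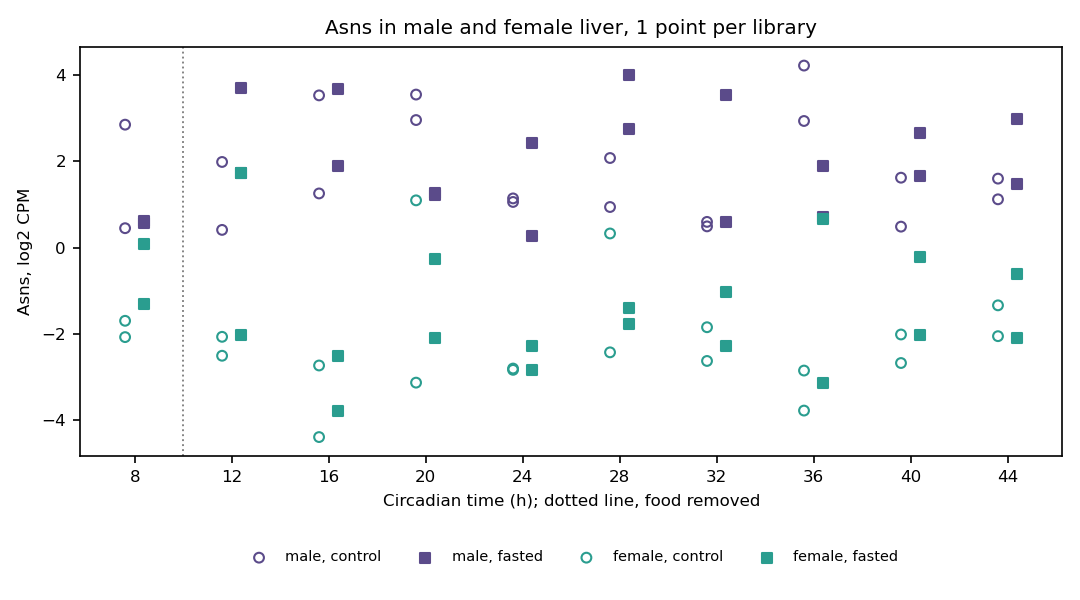
Asns in log2 CPM against circadian time, 1 point per library, purple for males and green for females, open circles for control and filled squares for fasted. Within each treatment and time both male points lie above both female points, except at fasted CT12, where a female at 3.29 CPM lies above a male at 3.27 CPM.

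The fasting effect itself differed between the sexes for 2 members, Ddit3 and Atf5, both lower in females than in males, a direction called for 7.02% of all genes. Ddit3 fell by 0.52 ± 0.10 in females fitted alone (adjusted p = 1.46e-04), with a change of -0.06 ± 0.11 in males (adjusted p = 0.658), and the difference was -0.46 ± 0.15 (adjusted p = 0.0367). Over CT12 to CT44 the fasted females ranged from 1.91 to 5.26 CPM and the fasted males from 2.28 to 7.84 CPM. Atf5 rose by 0.68 ± 0.08 in females and 0.98 ± 0.06 in males (difference -0.30 ± 0.10, adjusted p = 0.0416). The Ddit3 call was lost with limma-voom (adjusted p = 0.0615) and the Atf5 call with upper quartile scaling (adjusted p = 0.0506). Both calls were lost without male replicate 1, male replicate 2 or female replicate 1. The differences were then -0.46, -0.40 and -0.27 for Ddit3 and -0.30, -0.26 and -0.26 for Atf5. Without fasted CT40 female 2 and fasted CT44 female 1 neither difference passed (adjusted p = 0.101 for each). Ddit4 had changes of 2.38 ± 0.37 in females and 1.14 ± 0.24 in males, and the difference of 1.24 did not pass (adjusted p = 0.0650), nor did it without those libraries (0.53, adjusted p = 0.469).

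**Figure D4:**
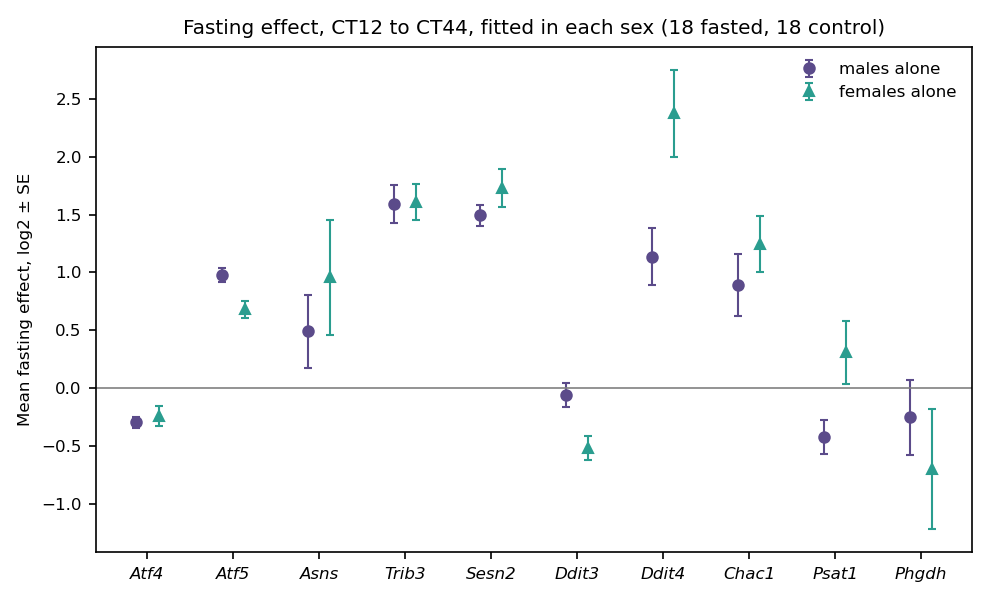
Mean fasting effect from CT12 to CT44 on the log2 scale for each gene, fitted in males alone (purple circles) and in females alone (green triangles), with bars of 1 SE. Ddit3 lies at -0.06 in males and -0.52 in females, and Trib3 at 1.60 in males and 1.61 in females.

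Exon bins, the pieces into which the exons of a gene are split for counting, were tested in 8 members, since the bins of Psat1 and Phgdh held too few counts. Only Atf5 differed in the use of its bins (adjusted p = 0.0251), and 11.9% of all 13233 genes tested did. The difference lay in bin 6, which held 0.119% ± 0.049 of the gene's bin counts in control and 0.0801% ± 0.032 in fasted libraries (SD, n = 36 each), or about 19.1 and 21.7 counts per library. The call was lost under 6 of 8 alternatives. For the other 7 members the adjusted p was 1.00. In the exon table, 3 columns of fasted CT40 matched another library of their group best, and this test therefore used no sex.

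The pathway around the members was examined through lists of genes. Of the eIF2 kinases, which start the response, the haem-regulated Eif2ak1 rose by 0.33 and the interferon-induced Eif2ak2 (PKR), the endoplasmic reticulum kinase Eif2ak3 (PERK) and the amino acid sensor Eif2ak4 (GCN2) fell by 0.46, 0.20 and 0.25. Of 12 subunits and regulators of eIF2 and its phosphatases, 8 rose and 1 fell (6 and 1 without the 2 fasted libraries that stood apart), with Ppp1r15a (GADD34), the stress-induced phosphatase subunit, up by 0.67, Impact, an inhibitor of GCN2, up by 0.48 and the constitutive subunit Ppp1r15b down by 0.12. Of 11 genes listed as bZIP partners and feedback, 6 rose and 2 fell. Cebpd and Cebpb, partners of ATF4, rose by 2.07 and 1.09, from 5.12 to 22.1 CPM and from 97.2 to 198 CPM in the mean, and Cebpa and Batf2 fell by 0.47 and 0.55.

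Genes that ATF4 is known to drive did not move in 1 direction. Of 8 amino acid transporters tested, 4 rose: Slc6a9 for glycine (0.98), Slc38a2 for neutral amino acids (0.97), Slc43a1 (0.42) and Slc3a2 (0.18). The other 3 called transporters fell: Slc1a4 (by 1.53), Slc7a5 (by 0.52) and Slc1a5 (by 0.25). Of 10 enzymes of serine, glycine, proline and one-carbon metabolism, 3 rose: Gpt2, an alanine transaminase (0.93), Mthfd1l (0.78) and Cth, of cysteine synthesis (0.42). A further 5 fell: the proline enzymes Pycr1 and Aldh18a1 (by 1.31 and 0.81), Aldh1l2 (by 0.58), and the serine and glycine enzymes Psph and Shmt2 (by 0.49 and 0.21). Of 20 cytosolic tRNA synthetases, 10 fell, led by Cars1 (by 0.67) and Yars1 (by 0.42), and 5 rose slightly, Gars1 (0.14), Qars1 (0.12), Lars1 (0.11), Eprs1 (0.09) and Sars1 (0.07). Without the 2 fasted libraries that stood apart, 13 fell and 4 rose.

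Among 10 secreted and other stress targets, 7 rose and 2 fell. Fgf21 rose by 3.95 and the cell cycle inhibitor Cdkn1a by 3.04, while Ddr2 and Nars1 fell by 0.25 and 0.19. Of 10 genes of the XBP1 and ATF6 branches of the unfolded protein response, 7 fell, led by Sdf2l1 (by 1.31) and the sensor Ern1 (by 0.71), and only Atf6 rose (0.16); without the 2 fasted libraries that stood apart, 8 fell. Of 10 genes around mTORC1, 4 rose, Mtor (0.47), Sesn1 (0.28), Rheb (0.25) and Rptor (0.11), and 4 fell, Castor2 (by 0.63), Sesn3 (by 0.52), Deptor (by 0.18) and Tsc2 (by 0.06). Without the 2 fasted libraries that stood apart, 3 rose and 4 fell. Sesn1 read 233 CPM in fasted CT40 female 2 and 76.7 CPM in fasted CT44 female 1. Its median over all libraries but control CT8 female 2 was 15.0 CPM. Of 6 glucocorticoid-responsive genes, 5 rose, Fkbp5 (2.16), Zbtb16 (1.92), Per1 (1.46), Tat (1.03) and Sgk1 (0.63). In all, of 100 genes on these lists that were tested, 44 rose and 36 fell, beside 29.5% and 32.9% of all genes.

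**Figure D5:**
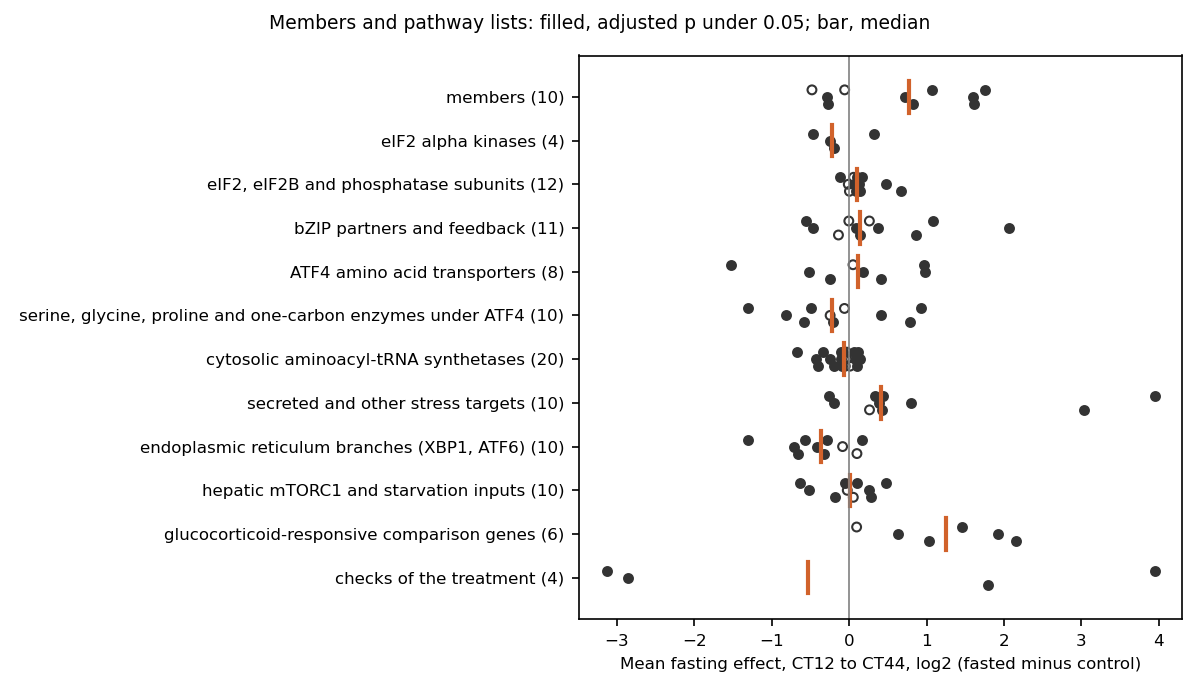
Mean fasting effect from CT12 to CT44 (log2, fasted minus control) of the members and of each gene on the lists around them, with the number tested in brackets, filled points for an adjusted p under 0.05 and an orange bar at the median. The member median of 0.77 lies right of the medians of the synthetase list (-0.07) and of the XBP1 and ATF6 list (-0.37), and left of that of the glucocorticoid-responsive list (1.25).

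The genes most like each member were taken over 20 means of treatment and time, with Pearson's r as a description, since the means share their libraries, scaling and control groups. They were Serinc1, Ilvbl and Psmd9 for Sesn2 (r 0.97 in each case), Fbxo21, Tbc1d17 and Inpp5k for Trib3 (0.94 to 0.97), Cavin2, Ppip5k2 and Slain2 for Ddit4 (0.94 to 0.97), and Fam210b, Ceacam1 and Elovl5 for Atf5 (0.95 to 0.96). For Chac1 they were the autophagy genes Ulk1 and Atg14, and Ercc5 (0.90 to 0.92). For Atf4 they were Dnajb2, Zfp341 and Mapk1ip1l (0.82 to 0.83), and for Ddit3 Ubfd1, Ints5 and Piga (0.80 to 0.83). Asns had no close match, with 0.70 for Myh10, 0.70 for Erdr1y and 0.68 for Degs1. For Phgdh they were Atp8b2, Plcb2 and Lcp2 (0.91 to 0.93) and for Psat1 Arhgef1, Arhgap45 and Impdh1 (0.75 to 0.81), and both members had their highest group mean at control CT8, which holds control CT8 female 2. Among the members themselves, the closest pair was Trib3 and Sesn2 (0.70), and Atf4 was opposed to Chac1 (-0.67) and Trib3 (-0.66).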

How the data were processed

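The authors deposited raw counts per gene and per exon bin, without normalization, with 1 column per library; 0 columns belonged to other series. Their table of normalized values was not used. The submitters' processing notes name Trimmomatic, HISAT2, DESeq2 and GRCm39, with no versions or roles, and the counting program is not given in the sources used here. The article is a review without methods for this experiment, so it could not guide the choice of tests. The members and lists were chosen with earlier results of these data known.

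Counts were analysed in R 4.3.3 with edgeR 4.0.16 (filterByExpr, TMM, trended dispersion, glmQLFit), limma 3.58.1 and DESeq2 1.42.0. All 80 libraries entered 1 model, in which every combination of treatment, time and sex had its own mean. SE is the fitted change divided by the root of its F statistic. Rhythms were fitted with a cosine and a sine of 24 h and sex, with a linear change over time in fasted liver, and exon bins with diffSpliceDGE and Simes' method, leaving out 5 rows that name no exon (8.28% to 25.9% of the counts). Scripts were tested on simulated data. Levels per kilobase used exon lengths of GENCODE M21, and sequences came from RefSeq (GRCm38.p6), a build other than the authors'.

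The named genes were all 10 members, the 2 largest rises and the 2 largest falls of each list among those called, genes behind a count of 5 or fewer, and the 3 genes most correlated with each member (mean log2 CPM of at least 1). Alternatives were other scalings, no filter, limma-voom, DESeq2, no sex term, a replicate block, and leaving out replicates, times, sexes or the libraries that stood apart. Replicates of a group are separate samples by their labels, and p-values measure the spread between them.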

Additional observations from a re-analysis of the deposited data

Results flagged for a closer look

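In each group of 4, the library at either end was compared with the remaining 3 by the gap to its neighbour over the range of the group on the log2 scale. Of 200 groups of the 10 members, 11 had one, where chance gives about 10 (1 in 20). Fasted CT40 female 2 was far above its group for Atf4 (0.877 of the range, 142 CPM against 61.6 to 68.2), Trib3 (0.866, 20.9 CPM against 7.96 to 9.06) and Sesn2 (0.859, 98.5 CPM against 21.5 to 26.7). Control CT8 female 2 was far above its group for Psat1 (0.922, 10.8 CPM against 0.544 to 0.694).

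The other 7 were Atf4 low in fasted CT16 male 1 (0.913, 66.9 CPM), Atf5 low in fasted CT24 female 2 (0.938, 675 CPM against 860.1 to 874), Chac1 low in control CT32 male 1 (0.856, 1.86 CPM), Psat1 low in fasted CT12 female 2 (0.921, 0.320 CPM), and Phgdh high in control CT12 male 1 (0.974, 0.150 CPM), in control CT16 male 1 (0.867, 0.595 CPM) and in control CT24 female 2 (0.896, 0.362 CPM).

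The fasting effect differed between females and males for Atf5 (difference -0.30) and Ddit3 (-0.46), and between the late and the early times of the same nominal phase for Trib3 (1.06) and Sesn2 (0.75), each by a test of the difference. Each of these calls was lost under several alternatives, as given above.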

How the results depend on the processing

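Of 255 counts recomputed under an alternative, 214 stayed within 1.5 times the reported count, and of 2349 values of single members, 2165 kept their side of the threshold with no change of sign in a called value, 120 lost their call, 60 gained one (30 of them without the filter) and 4 reversed. Among the 2165, 31 changed sign and were called in neither setting. The 4 were Phgdh at CT8 (1.03 without female replicate 2 and 0.67 without control CT8 female 2) and Ddit4 at CT40 (-0.66 without female replicate 2 and -0.59 without fasted CT40 female 2 and fasted CT44 female 1). The cause was not tested.

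Among counts of members called, limma-voom gave 0 for the late minus early effect, 1 for the sex difference of the fasting effect and 0 at CT8. Upper quartile scaling gave 1 for that sex difference, and leaving out fasted CT40 female 2 and fasted CT44 female 1 gave 0. At CT8, DESeq2 gave 2, no sex in the model gave 2 and leaving out control CT8 female 2 gave 0. No sex in the model also gave 2 lower calls over the 9 times. In fasted liver the rhythm was called in 3 members with no linear change over time and in 3 with a quadratic one. Exon bins gave 0 members with at least 10 counts in every library (868 genes), 0 without CT40 and 0 with limma diffSplice. No filter gave 5 members at CT8, 4 for sex in control liver, 7 lower calls over the 9 times and 8 fasted rhythms, but there edgeR's prior degrees of freedom were infinite (4.79 with the filter), so each gene took the spread of the trend.

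Leaving out 1 replicate number of 1 sex at a time gave 6 to 8 members and 10835 to 12230 genes for the mean effect, 5 to 8 and 8485 to 12000 for the joint test, 0 to 3 and 1449 to 4095 for late minus early, 0 to 2 and 238 to 2473 for the sex difference of the effect, and 2 to 3 and 5741 to 7704 for sex in control liver. Phgdh at CT8 ran from -4.59 to 1.03 and Ddit4 at CT40 from -0.66 to 2.94. There were 22 to 30 higher and 0 to 6 lower calls over the 9 times, 0 to 2 at CT8, 6 to 8 control rhythms (6383 to 7153 genes), 4 to 5 fasted rhythms (6715 to 7820), 2 to 4 rhythm differences (2784 to 3703), and 0 to 1 members and 840 to 1476 genes for exon bins.

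Libraries that share a replicate number did not deviate together (20 correlations of -0.0564 to 0.249, median 0.00193, 1 over 0.1), so the numbers were not taken as pairs. With the replicate block, 7 members and 13189 genes were called for the mean effect (Asns was lost), 30 higher and 4 lower over the 9 times, 8 control and 4 fasted rhythms and 1 exon result (1625 genes). DESeq2 size factors and upper quartile scaling moved the median change of all genes from -0.02 to -0.01 each, with 6 members higher and 2 lower throughout. Depth limits Phgdh (median 5 counts), Psat1 (15) and Asns in females.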
